A study of Bos taurus with 37 samples.

Results

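Collagens, laminins and integrins were examined in single bovine blastocysts and in the skin fibroblasts that donated nuclei for cloning. Members were taken by gene symbol from the expression table. Symbols of the form COL with a chain number, LAMA, LAMB or LAMC with a number, and ITGA or ITGB matched 86 rows. COL1A1, COL1A2, COL3A1, COL4A1, COL4A5, COL4A6 and LAMA1 were left out, which is 7 rows, and 79 of the table's 22628 rows remained. They comprise 35 collagen rows, 12 laminin rows, 18 integrin alpha rows, 8 integrin beta rows and 6 rows whose symbol fits the pattern but names another protein. These 6 are COL4A3BP, a ceramide transporter, the integrin-binding or related proteins ITGB1BP1, ITGB1BP2, ITGB1BP3 and ITGB3BP, and ITGBL1, a secreted protein with integrin-like repeats. The 79 rows carry 77 different symbols, because LAMA4 stands in 3 rows, which were kept apart as rows 1, 2 and 3 and can share reads.

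The study asked how sex and origin shape the transcriptome of bovine blastocysts (BLs). Embryos of 3 kinds were sequenced one by one. SCNT-BLs came from somatic cell nuclear transfer, in which a single ear skin fibroblast from an adult animal was fused with an enucleated oocyte; they were collected on day 6 to 8 and chosen for 60 to 80 blastomeres. Sham NT-BLs came from fertilized zygotes that kept both pronuclei but lost the polar body with some ooplasm, and were then activated with ionomycin and 6-DMAP. IVF-BLs came from in vitro fertilization without manipulation. Males comprised 6 SCNT-BLs, 6 sham NT-BLs and 6 IVF-BLs and females 6 SCNT-BLs, 5 sham NT-BLs and 6 IVF-BLs, 35 embryos in all, and each sex had 1 library of donor fibroblasts. Poly-A RNA was amplified by pico-profiling, a method for minute samples. The sexes were pooled and sequenced on separate flow cells, so sex and flow cell cannot be told apart, and male and female sets were kept separate.

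Collagens are secreted triple helices. Fibrillar chains form cable-like fibres, collagen VI forms beaded microfibrils around connective tissue cells, and collagen IV forms the mesh of basement membranes. Laminins are cross-shaped trimers of an alpha, a beta and a gamma chain that build the other basement membrane network. Integrins are cell surface receptors made of an alpha and a beta subunit; the alpha subunit largely sets which matrix protein is bound, and the beta subunit links the receptor to the cytoskeleton through talin and kindlin. In the blastocyst, the outer epithelium (trophectoderm) rests on a basement membrane, and trophectoderm integrins are known for their part in attachment to the uterus.

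Values are FPKM, fragments scaled to transcript length and to the number of mapped fragments, which allow levels of genes of different length to be compared. They are not counts, so depth and counting error are not given by the table. A rough relative depth read from the steps between low values ran between 0.371 and 1.44 over 36 of the 37 libraries; none could be read for male IVF-BL replicate 1. It was lowest in sham NT-BLs, with medians of 0.635 in males and 0.674 in females, against 0.873 and 0.940 in SCNT-BLs and 0.927 (5 embryos) and 1.10 in IVF-BLs. The summed fibroblast and trophectoderm markers fitted the labels. A list of 9 fibroblast markers summed to 3467 and 3920 FPKM in male and female donor cells, against 0.661 to 35.1 FPKM in the 35 blastocysts, where the fibroblast marker S100A4 was listed at 0 throughout. A list of 7 trophectoderm markers, led by KRT8 and KRT18, summed to 17.6 and 36.6 FPKM in male and female donor cells, against 1764 to 7361 FPKM in blastocysts. Within this list ELF5 averaged only 0.199 FPKM in blastocysts, and TEAD4 had 11.6 and 14.2 FPKM in male and female donor cells. Of 5 primitive endoderm markers, GATA6 averaged 136 FPKM, PDGFRA 52.7 FPKM and GATA4 1.29 FPKM in blastocysts, whereas SOX17 and FOXA2 averaged near 0. PDGFRA was high in donor cells too, at 145 and 77.2 FPKM in males and females.

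Collagen, laminin and integrin rows were more often higher in donor fibroblasts than the rows of the whole table were. A member was called different when the donor value of log2(FPKM + 1) lay at least 1 from the blastocyst mean of the same sex and outside the range of those blastocysts; with 1 donor library per sex there is no test and no replicate error. By this rule, 36 of the 79 members were higher and 2 lower in male donor cells, where 15.4% and 8.19% of all rows were. In female donor cells 35 were higher and 1 lower, where 17.2% and 9.34% of all rows were. The call was the same in both sexes for 30 members that were higher and 1 that was lower, against 10.8% and 5.61% of all rows. Many members were at or near 0 in both cell types, and 62 of the 79 exceeded 0.1 FPKM in donor cells or on average in blastocysts in both sexes. Over these 62 members the median difference was 1.23 in males and 1.55 in females on the log2(FPKM + 1) scale. Over the 15508 rows of the whole table past the same limit it was 0.11 and 0.15. A row can pass that limit through its donor value alone. In these bulk libraries, fewer cells of a type and less RNA per cell cannot be told apart.

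**Figure D1:**
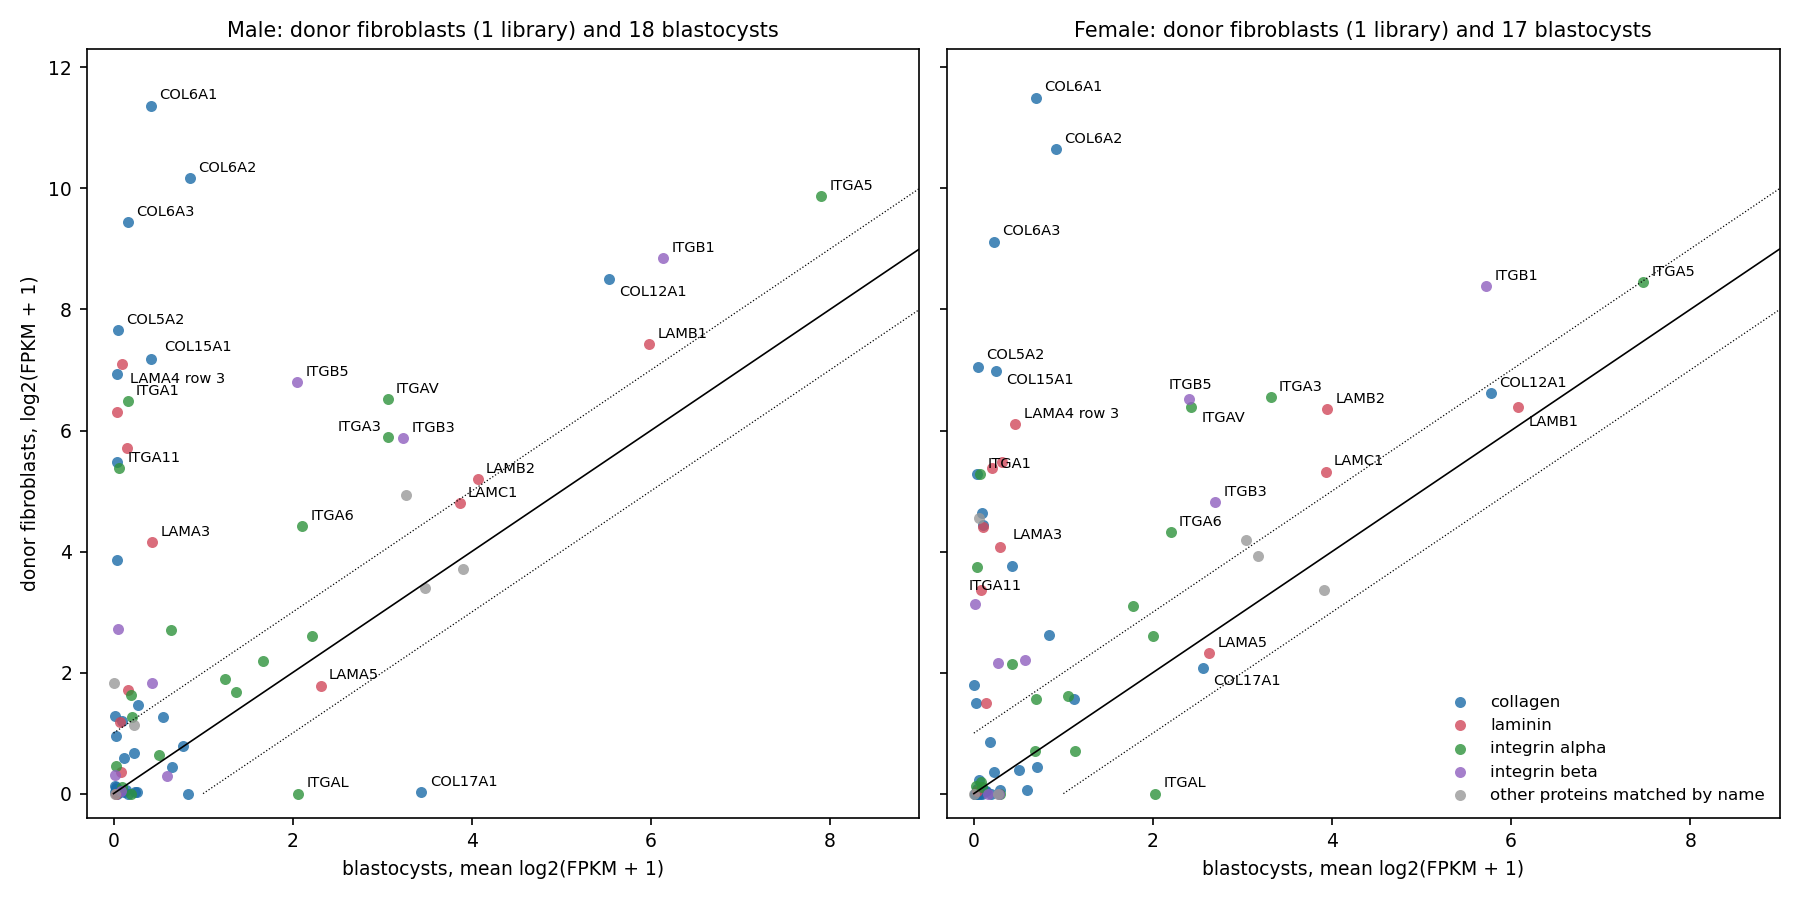
Level of each of the 79 members in donor fibroblasts (y axis) against the mean over blastocysts of the same sex (x axis), both as log2(FPKM + 1), with males left and females right. The solid line marks equal levels and the dotted lines a difference of 1 in either direction; the 3 collagen VI chains lie near the upper left corner, while ITGA5, ITGB1, COL12A1 and LAMB1 are the members highest in blastocysts.

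Among collagens, 11 of 35 rows were higher in both donor libraries and 0 were lower in both, where 10.8% and 5.61% of all rows were. Collagen VI, whose 3 main chains assemble into one microfibril, stood farthest apart. COL6A1 had 2641 FPKM in male donor cells, against 0 to 3.63 FPKM in the 18 male blastocysts, and 2896 FPKM in female donor cells, against 0.0527 to 4.09 FPKM in the 17 female blastocysts. Its difference was 10.95 in males and 10.81 in females on the log2(FPKM + 1) scale. COL6A2 had 1156 and 1608 FPKM in male and female donor cells, against at most 4.00 FPKM in male and 3.54 FPKM in female blastocysts. COL6A3, the largest chain, had 692 and 556 FPKM in male and female donor cells, against at most 0.565 and 0.677 FPKM in male and female blastocysts. The donor values thus lay far outside every embryo, whatever its origin.

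The other donor collagens were fibrillar chains and collagens that decorate fibres or basement membranes. COL5A2, a chain of the fibrillar collagen V that regulates fibre diameter, had 201 and 131 FPKM in male and female donor cells, against at most 0.0838 and 0.130 FPKM in male and female blastocysts. Its partner chain COL5A1 had 43.4 and 23.8 FPKM in male and female donor cells. COL11A1, a related fibrillar chain best known from cartilage, had 121 and 38.0 FPKM in male and female donor cells. COL15A1, which sits beside basement membranes, had 144 and 125 FPKM in male and female donor cells, against at most 1.83 and 0.954 FPKM in male and female blastocysts. COL5A3, COL8A1, COL8A2 and COL16A1 completed the set.

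Laminins differed in which chains were present. In both sexes 7 of 12 laminin rows were higher in donor cells, where 10.8% of all rows were. LAMA4, an alpha chain typical of mesenchymal and vascular cells, had 136 and 67.9 FPKM in male and female donor cells in row 3, against medians of 0 in male SCNT-BLs, 0 in male sham NT-BLs and 0.0516 FPKM in male IVF-BLs. Among females this row had medians of 0 FPKM in SCNT-BLs, 0.0665 FPKM in sham NT-BLs and 1.01 FPKM in IVF-BLs. Rows 1 and 2 had 51.2 and 77.8 FPKM in male and 43.7 and 40.9 FPKM in female donor cells. LAMA3 and LAMB3, an alpha and a beta chain found in epithelial basement membranes, were also called. LAMA3 had 16.9 and 15.9 FPKM in male and female donor cells, whereas LAMB3 had 1.28 and 9.31 FPKM in male and female donor cells.

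Other laminin subunits had nearer levels in both cell types. LAMB1, the beta chain of the early embryonic laminins, had 171 FPKM in male donor cells, against 35.5 to 99.0 FPKM in male blastocysts. The female donor value of LAMB1, 82.7 FPKM, lay within the 37.5 to 101 FPKM of female blastocysts. LAMC1, the gamma chain of most laminins, had 26.7 and 38.9 FPKM in male and female donor cells and was called in females alone. LAMA5, the alpha chain of adult epithelial basement membranes, had 2.45 and 3.99 FPKM in male and female donor cells, which lay within the range of blastocysts of the same sex.

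Integrin receptors were higher in donor cells in 6 of 18 alpha and 5 of 8 beta rows in both sexes, where 10.8% of all rows were. ITGA1 and ITGA11, collagen-binding alpha subunits, were near 0 in embryos: ITGA1 had 88.7 and 37.8 FPKM in male and female donor cells, against at most 1.22 and 0.230 FPKM in male and female blastocysts. ITGA11, best known from fibroblasts, had 40.5 and 12.5 FPKM in male and female donor cells, against at most 0.220 and 0.167 FPKM in male and female blastocysts. ITGB8, which partners ITGAV in binding latent TGF-beta, had 5.60 and 7.81 FPKM in male and female donor cells, against at most 0.147 and 0.0772 FPKM in male and female blastocysts. No embryo exceeded 1.22 FPKM of any of these 3 subunits.

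Other integrins were present in both cell types and higher in donor cells. ITGAV, the alpha subunit of receptors for vitronectin and osteopontin, had 90.9 and 82.7 FPKM in male and female donor cells, against 2.94 to 16.0 FPKM in male and 2.04 to 9.17 FPKM in female blastocysts. Its partner ITGB5 had 111 and 90.5 FPKM in male and female donor cells, against at most 7.56 and 10.1 FPKM in male and female blastocysts. ITGB1, the beta subunit shared by most matrix receptors, had 462 and 334 FPKM in male and female donor cells, against 42.7 to 152 FPKM in male and 22.6 to 142 FPKM in female blastocysts. ITGB3, another partner of ITGAV, had 57.7 and 27.2 FPKM in male and female donor cells, against at most 31.3 and 10.1 FPKM in male and female blastocysts. The laminin receptors ITGA3 and ITGA6 followed the same order, with 58.1 and 92.8 FPKM for ITGA3 and 20.5 and 19.0 FPKM for ITGA6 in male and female donor cells.

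Few members ran the other way. ITGAL, the alpha subunit of the leukocyte receptor LFA-1, was listed at 0 in both donor libraries and had 0.427 to 8.61 FPKM in male and 0.334 to 12.1 FPKM in female blastocysts. Its only known beta partner, ITGB2, had at most 0.692 FPKM in male and 1.13 FPKM in female blastocysts. A list of 5 blood markers summed to at most 1.92 FPKM in any blastocyst, with HBA at 0 in all of them; the part of blood cells in the ITGAL values was not tested. COL17A1, a transmembrane collagen of epithelial hemidesmosomes, had 0.0179 FPKM in male donor cells, against 1.65 to 30.7 FPKM in male blastocysts. In females the COL17A1 donor value was 3.20 FPKM, inside the 1.77 to 12.03 FPKM of the blastocysts.

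Few collagens averaged over 1 FPKM in blastocysts. Of the 35 collagen rows 4 did so across all blastocysts, where 11155 of all 22628 rows did. So did 4 of 12 laminin rows, 9 of 18 integrin alpha rows and 3 of 8 integrin beta rows. In male and female donor cells, 13 and 15 of the collagen rows and 10 and 11 of the laminin rows exceeded 1 FPKM. For integrin alpha rows the donor counts were 13 and 11, and for integrin beta rows 5 and 6. COL12A1, a collagen that binds along fibres, made up a median of 78.1% of the FPKM summed over the collagen members of an embryo (range 47.9% to 92.2%), against 6.72% in male and 1.76% in female donor cells. Its own level was 362 and 97.1 FPKM in male and female donor cells, and it was called higher in the male ones. COL4A2, a collagen IV chain, averaged 1.01 FPKM in blastocysts (0.138 to 2.44 FPKM). It had 0.735 and 1.95 FPKM in male and female donor cells and was called in neither. ITGA5, the fibronectin receptor subunit, made up a median of 85.6% of the integrin alpha sum (72.8% to 94.4%), and ITGB1, its partner, 82.1% of the integrin beta sum (63.0% to 94.2%). ITGA5 had 938 and 350 FPKM in male and female donor cells and was called higher in males alone. LAMB1 made up 62.1% of the laminin sum, LAMB2 15.4% and LAMC1 12.6%. FN1, the fibronectin gene and so the ligand of the ITGA5 and ITGB1 pair, averaged 3870 FPKM in blastocysts. It had 3732 and 506 FPKM in male and female donor cells. These shares refer to the members only, since the collagens and the laminin named at the outset were left out.

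**Figure D2:**
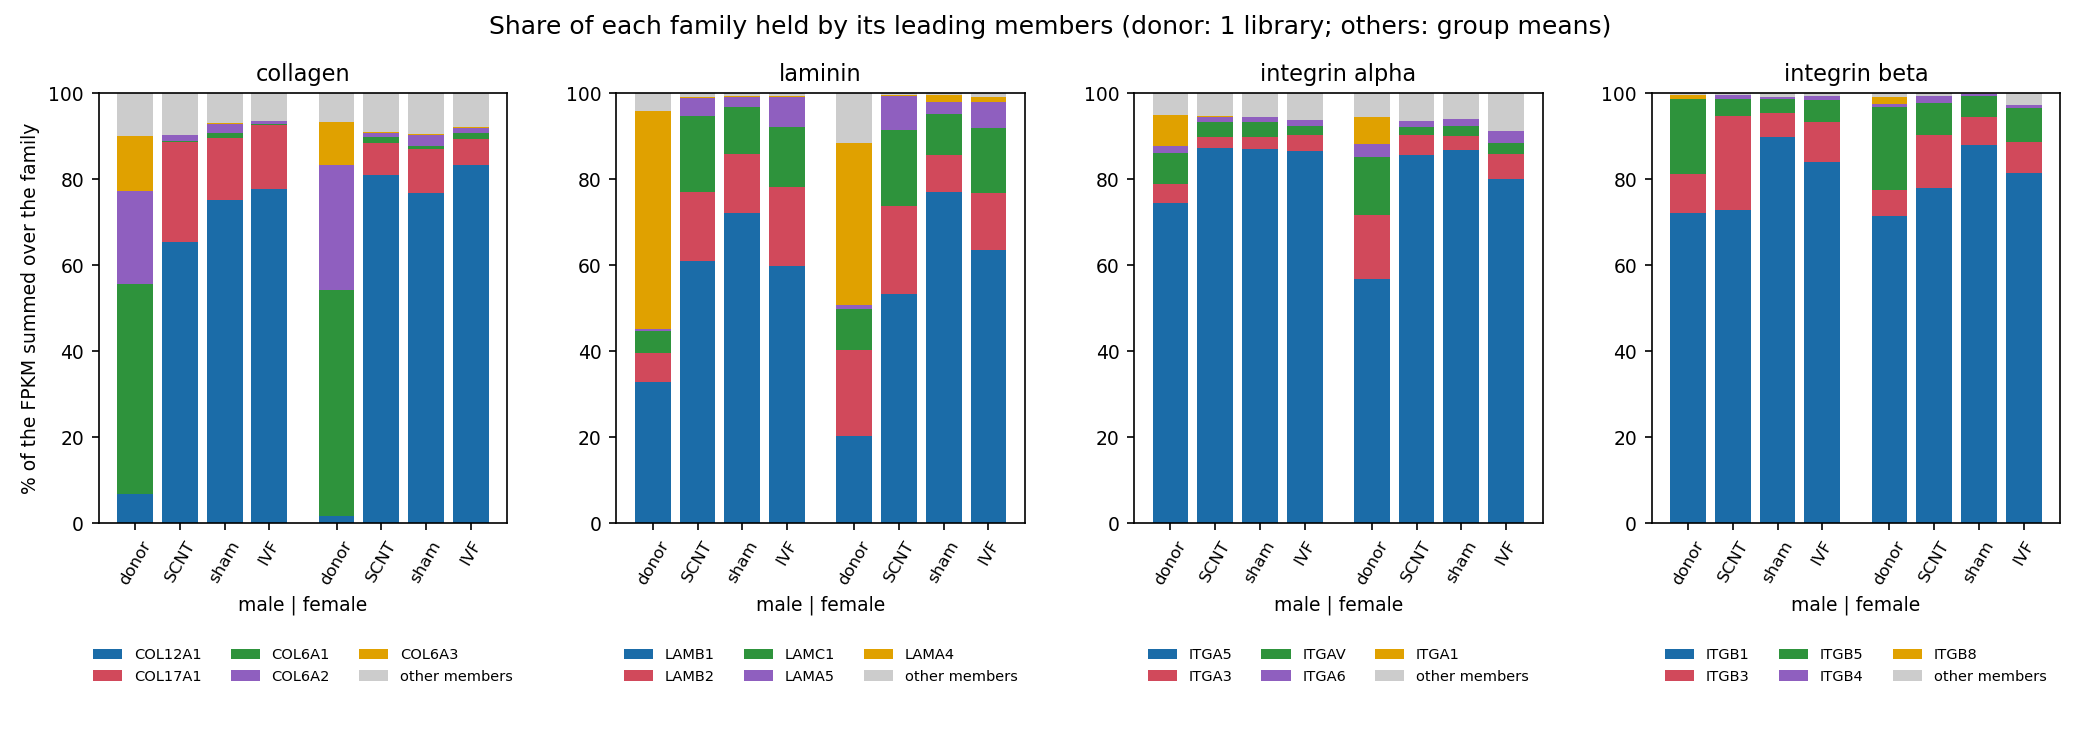
Share (%) of the FPKM summed over each family that its 5 leading members hold, in donor fibroblasts (1 library per sex) and as group means in SCNT-BLs, sham NT-BLs and IVF-BLs, for males (left 4 bars) and females (right 4 bars); the 3 LAMA4 rows are added together. Collagen VI chains fill most of the donor collagen bars and COL12A1 most of the blastocyst bars, whereas ITGA5 and ITGB1 lead their families in both cell types.

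Embryos of one group were more alike in some of these genes than in others. The SD within groups on the log2(FPKM + 1) scale, pooled over the 6 groups of blastocysts, was 0.24 for LAMB2, 0.32 for ITGA5, 0.35 for LAMB1 and 0.39 for LAMC1. The median over the 5516 rows averaging over 10 FPKM was 0.50. COL12A1 varied more, with an SD of 0.71. COL17A1 and ITGAL, which averaged 8.90 and 3.82 FPKM, had SDs of 0.84 and 0.85. For them the median over the 11155 rows averaging over 1 FPKM, 0.61, is the nearer reference. ITGA5 was the most even of the integrins averaging over 1 FPKM and was high in each embryo, between 122 FPKM and 364 FPKM. Its lowest, median and highest values were 179, 207 and 250 FPKM in male SCNT-BLs, 183, 280 and 364 FPKM in male sham NT-BLs and 207, 245 and 292 FPKM in male IVF-BLs.

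The 30 rows called higher in both donor libraries were summed per embryo, in 2 sets. The first holds the 22 rows with a blastocyst mean under 1 FPKM, a choice that used the SCNT-BLs too and so set low sums in embryos; these sums are a description. They were 4289 and 4093 FPKM in male and female donor cells. In male SCNT-BLs this sum had a lowest, median and highest value of 1.34, 2.27 and 4.10 FPKM, against 2.10, 4.36 and 7.75 FPKM in male sham NT-BLs and 1.11, 2.55 and 3.63 FPKM in male IVF-BLs. In female SCNT-BLs it was 1.05, 1.92 and 5.13 FPKM, against 1.15, 2.66 and 11.7 FPKM in female sham NT-BLs and 4.06, 5.73 and 7.55 FPKM in female IVF-BLs. The other 8 rows, COL6A2, LAMB2, ITGA3, ITGA6, ITGAV, ITGB1, ITGB3 and ITGB5, averaged at least 1 FPKM in blastocysts and summed to 1992 and 2336 FPKM in male and female donor cells. Their sums had a lowest, median and highest value of 85.0, 104 and 138 FPKM in male SCNT-BLs, 93.0, 189 and 198 FPKM in male sham NT-BLs and 99.6, 109 and 127 FPKM in male IVF-BLs. In females they were 69.2, 88.2 and 124 FPKM in SCNT-BLs, 65.0, 82.4 and 187 FPKM in sham NT-BLs and 98.5, 112 and 135 FPKM in IVF-BLs. For both sets, the SCNT-BL values overlapped those of the other embryos of their sex in every pairing.

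Origin was then compared within each sex with limma on log2(FPKM + 1), using the rows that averaged over 0.1 FPKM in the embryos compared. Adjusted p-values are Benjamini-Hochberg values over all rows tested, with a threshold of 0.05. Each embryo is 1 replicate. SCNT-BLs and sham NT-BLs were both manipulated and activated. They differ in genome, in fertilization, and in enucleation and the injection and fusion of a donor cell. These cannot be told apart in that comparison. Sham NT-BLs and IVF-BLs share fertilization but not the manipulation and activation. The 3 comparisons of a sex reuse the same embryos and are not independent.

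COL12A1 was lower in male SCNT-BLs than in both other male groups. Its lowest, median and highest values were 10.9, 22.5 and 51.5 FPKM in male SCNT-BLs, 34.8, 72.8 and 125 FPKM in male sham NT-BLs and 38.6, 48.6 and 89.1 FPKM in male IVF-BLs. Male SCNT-BL replicates 1 and 5, at 51.5 and 45.1 FPKM, overlapped the other groups, and the remaining 4 lay below every male sham NT-BL and male IVF-BL. Against male IVF-BLs the difference was -1.18 on the log2 scale (SE 0.35, limma adjusted p = 0.0499), and COL12A1 was the only 1 of 45 members tested that passed, where 6.98% of all rows did. The call against IVF-BLs was lost without any 1 of the embryos other than male SCNT-BL replicates 1 and 5, with adjusted p up to 0.0997, and without the filter, with centred libraries, in 1 fit over 3 groups and without the variance trend, with adjusted p up to 0.0948; the difference stayed negative. Against male sham NT-BLs the difference was -1.46 (SE 0.41, limma adjusted p = 0.0278), again the only 1 of 48 members to pass, where 11.8% of all rows did. This call was lost without male SCNT-BL replicate 2, 3 or 4 or male sham NT-BL replicate 1, 2 or 6, with adjusted p up to 0.0670, and without the filter, with an adjusted p of 0.0601. A list of 5 primitive endoderm markers, led by GATA6, summed to 193 to 361 FPKM (median 269) in male SCNT-BLs, 81.1 to 204 FPKM (median 142) in male sham NT-BLs and 107 to 203 FPKM (median 190) in male IVF-BLs. The inner cell mass markers had median sums of 83.9 FPKM in male SCNT-BLs, 34.3 FPKM in male sham NT-BLs and 77.1 FPKM in male IVF-BLs. The part of either list in the COL12A1 differences was not tested.

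In females, COL12A1 did not pass in any comparison of origins. Its lowest, median and highest values were 31.0, 53.2 and 74.3 FPKM in female SCNT-BLs, 38.8, 47.2 and 73.1 FPKM in female sham NT-BLs and 19.0, 72.8 and 127 FPKM in female IVF-BLs. The groups overlapped widely, and the difference between female SCNT-BLs and female sham NT-BLs was -0.03 (SE 0.27, limma adjusted p = 0.961). Whether the SCNT-BL minus sham NT-BL difference itself differed between the sexes was tested with an interaction term, which gave 1.43 for female minus male (SE 0.52, limma adjusted p = 0.164) and did not pass.

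**Figure D3:**
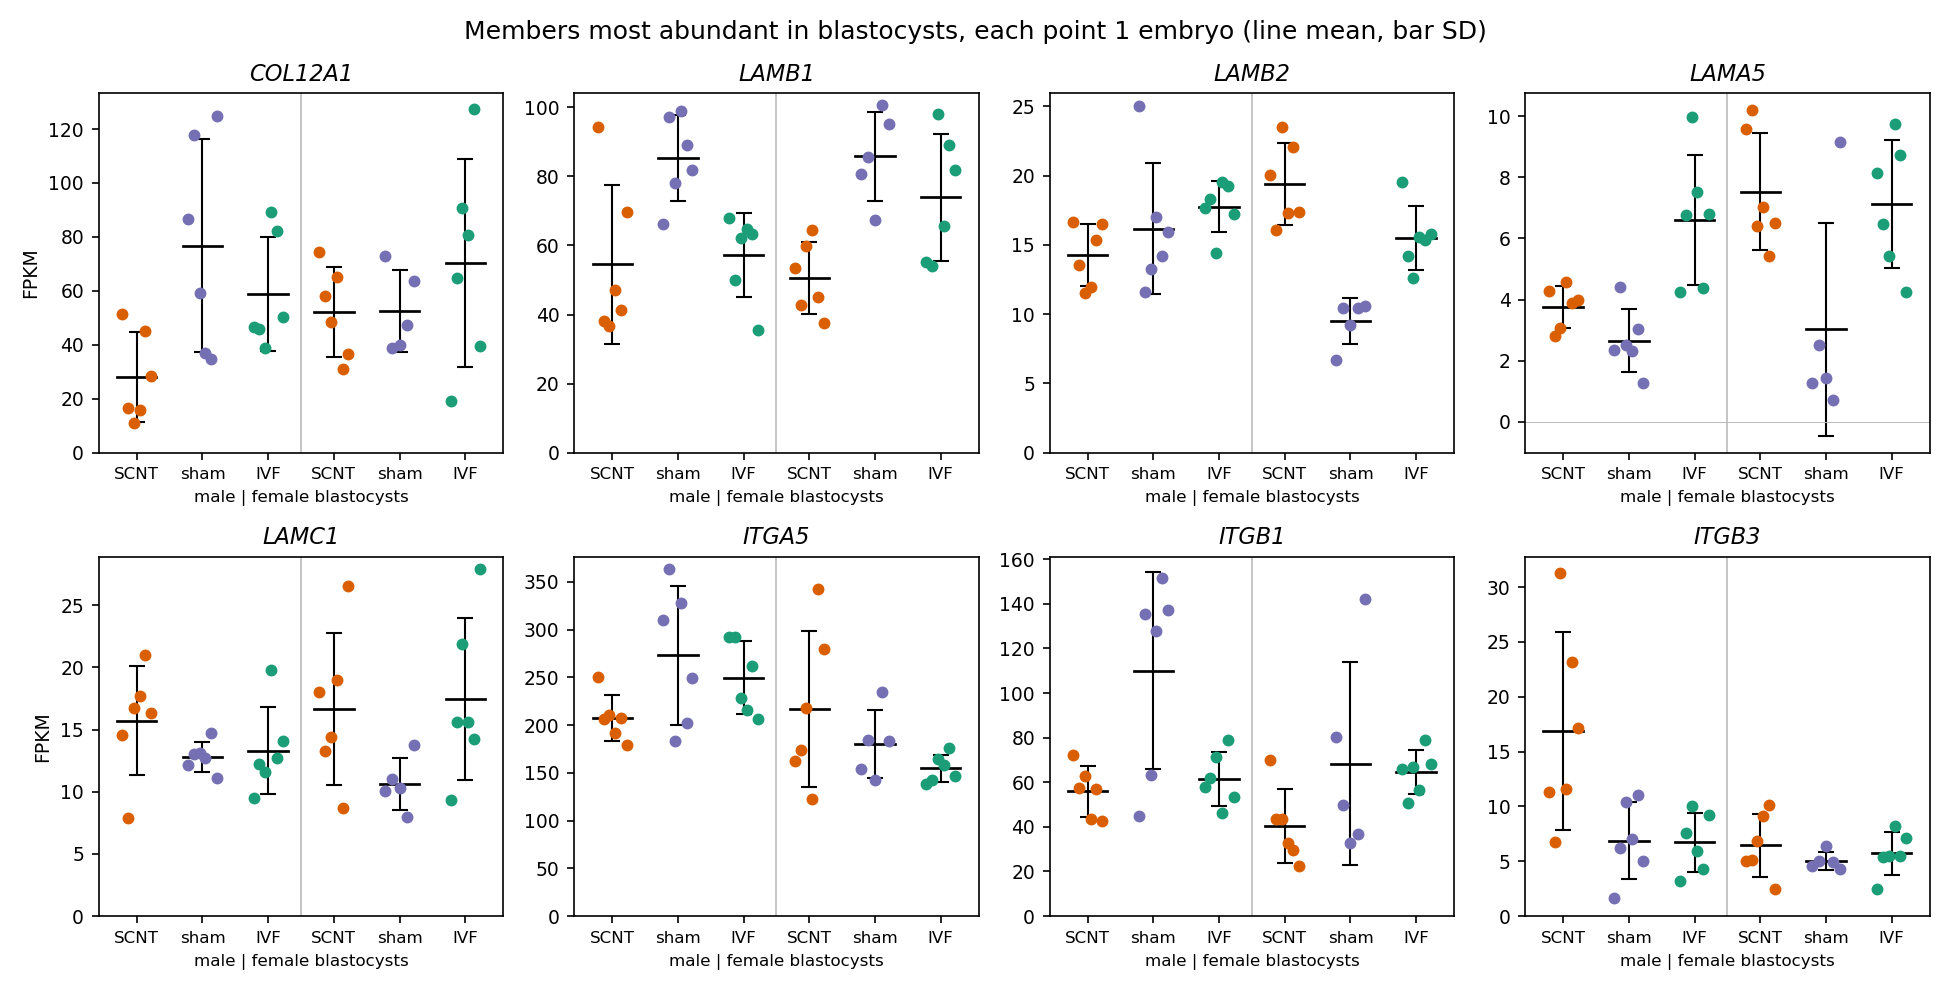
FPKM of 8 members in each blastocyst, 1 point per embryo, with the group mean (line) and SD (bar), for SCNT-BLs, sham NT-BLs and IVF-BLs in males (left of the grey line) and females (right of it). LAMB2 and LAMB1 do not overlap between female SCNT-BLs and female sham NT-BLs, 1 female sham NT-BL stands at 9.18 FPKM of LAMA5 above the other 4, and 4 of 6 male SCNT-BLs lie below all other male embryos in COL12A1.

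Laminin chains gave the other calls. In females, LAMB2, the beta chain of mature basement membranes, was higher in SCNT-BLs than in sham NT-BLs. Its lowest, median and highest values were 16.1, 18.7 and 23.5 FPKM in female SCNT-BLs, the 5 female sham NT-BLs had 6.68, 9.24, 10.4, 10.5 and 10.6 FPKM, and female IVF-BLs had 12.6, 15.5 and 19.5 FPKM. Every female sham NT-BL lay below every other female embryo. The difference between female SCNT-BLs and female sham NT-BLs was 0.97 (SE 0.24, limma adjusted p = 0.0161), and with any 1 embryo left out the adjusted p was at most 0.0445. Between female sham NT-BLs and female IVF-BLs the LAMB2 difference was -0.66 (SE 0.23, limma adjusted p = 0.0723), which did not pass.

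LAMB1 ran the opposite way in the same embryos. Its lowest, median and highest values were 37.5, 49.4 and 64.5 FPKM in female SCNT-BLs, against 67.3, 80.7, 85.6, 95.1 and 101 FPKM in the 5 female sham NT-BLs; female IVF-BLs had 54.0, 73.9 and 98.2 FPKM. The female SCNT-BLs all lay below the female sham NT-BLs, and female IVF-BLs overlapped both. The difference between female SCNT-BLs and female sham NT-BLs was -0.76 (SE 0.21, limma adjusted p = 0.0281), and it lost its call without female SCNT-BL replicate 2 or female sham NT-BL replicate 2, 4 or 5, with adjusted p up to 0.0766. LAMB2 and LAMB1 were the only 2 of 47 members that passed in this comparison, where 11.3% of all rows did. A list of inner cell mass markers, led by POU5F1, had sums of 42.0 to 101 FPKM (median 74.6) in female SCNT-BLs, 30.2 to 55.7 FPKM (median 37.3) in female sham NT-BLs and 62.7 to 164 FPKM (median 97.4) in female IVF-BLs; its part in the laminin differences was not tested, nor was that of the relative depths given above.

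In males, LAMB2 did not pass. LAMB2 had 11.5, 14.4 and 16.6 FPKM as lowest, median and highest value in male SCNT-BLs, 11.6, 15.1 and 25.0 FPKM in male sham NT-BLs and 14.4, 18.0 and 19.5 FPKM in male IVF-BLs. All male groups overlapped, and the difference between male SCNT-BLs and male sham NT-BLs was -0.14 (SE 0.23, limma adjusted p = 0.740). For LAMB2 the difference of SCNT-BLs from sham NT-BLs was larger in females than in males by 1.11 (SE 0.30, limma adjusted p = 0.0493 for the interaction), the only 1 of 51 members that passed, where 2.17% of all rows did. That call was lost with a pseudocount of 0.1 and with centred libraries, with adjusted p up to 0.0562. LAMB1 in males had lowest, median and highest values of 36.6, 44.2 and 94.3 FPKM in SCNT-BLs and 66.2, 85.5 and 99.0 FPKM in sham NT-BLs, with a difference of -0.71 (SE 0.24, limma adjusted p = 0.0665). The LAMB1 interaction was -0.05 (SE 0.31, limma adjusted p = 0.955). Male SCNT-BL replicates 1 and 6, at 94.3 and 69.6 FPKM, stood within the range of the male sham NT-BLs. Without replicate 1 the male LAMB1 difference had a limma adjusted p of 0.0167. With other single embryos left out instead, that adjusted p rose to as much as 0.143.

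LAMA5 was low in sham NT-BLs of both sexes. In males its lowest, median and highest values were 1.26, 2.43 and 4.42 FPKM in sham NT-BLs and 4.24, 6.78 and 9.97 FPKM in IVF-BLs, and 5 of 6 male sham NT-BLs lay below every male IVF-BL. The difference was -1.06 (SE 0.33, limma adjusted p = 0.0451), the only call among 47 members, where 12.1% of all rows passed. The call was lost in 9 of 12 fits that each left out 1 embryo, with adjusted p up to 0.102; it held without male IVF-BL replicate 1 or 5 or male sham NT-BL replicate 2. Male SCNT-BLs had 2.81, 3.94 and 4.56 FPKM as lowest, median and highest value. They overlapped both other groups, and their median lay below every male IVF-BL. The LAMA5 difference of male SCNT-BLs passed against neither group. The inner cell mass markers had median sums of 34.3 FPKM in male sham NT-BLs and 77.1 FPKM in male IVF-BLs, and their part in the LAMA5 difference was not tested.

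In females, LAMA5 had 0.710, 1.26, 1.44, 2.52 and 9.18 FPKM in the 5 sham NT-BLs, against 4.26, 7.31 and 9.77 FPKM as lowest, median and highest value in IVF-BLs. Replicate 5 was the high one, and the other 4 lay below every female IVF-BL and every female SCNT-BL, whose lowest, median and highest values were 5.44, 6.77 and 10.2 FPKM. With all embryos the difference between female sham NT-BLs and female IVF-BLs was -1.30 (SE 0.43, limma adjusted p = 0.0598), and without female sham NT-BL replicate 5 the adjusted p was 0.00620. Likewise the difference of female SCNT-BLs from female sham NT-BLs was 1.38 (SE 0.44, limma adjusted p = 0.0529), and 0.00701 was the adjusted p without that embryo. With other single embryos left out instead, the limma adjusted p rose to as much as 0.151 against female IVF-BLs. For female SCNT-BLs against female sham NT-BLs it rose to as much as 0.136. In the comparison of female sham NT-BLs with female IVF-BLs 0 of 51 members passed, where 13.5% of all rows did, and 4 were lower and 0 higher at an unadjusted p under 0.05, where 27.3% of all rows reached that level; without replicate 5, 1 member passed.

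Female SCNT-BLs were also set against female IVF-BLs. Of 50 members tested with limma 0 passed, where 0.321% of all rows did, so the count says little about the members. At an unadjusted p under 0.05, 5 members were lower and 0 higher, and 10.9% of all rows reached that level in either direction. ITGB1 was among them, with lowest, median and highest values of 22.6, 38.0 and 70.1 FPKM in female SCNT-BLs and 50.6, 66.2 and 79.1 FPKM in female IVF-BLs. Of the female SCNT-BLs 1 lay within the range of the IVF-BLs and 5 below it, and the difference was -0.74 (SE 0.25, limma adjusted p = 0.248).

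Other receptor subunits came near the threshold without passing. ITGB3 had lowest, median and highest values of 6.71, 14.3 and 31.3 FPKM in male SCNT-BLs, 1.66, 6.64 and 11.004 FPKM in male sham NT-BLs and 3.23, 6.75 and 10.04 FPKM in male IVF-BLs. Of the male SCNT-BLs, 5 exceeded every other male embryo. The difference from male IVF-BLs was 1.13 (SE 0.35, limma adjusted p = 0.0660) and that from male sham NT-BLs 1.18 (SE 0.41, limma adjusted p = 0.0760). Without male SCNT-BL replicate 2, the embryo at 6.71 FPKM, the difference of ITGB3 from male IVF-BLs had a limma adjusted p of 0.0286. With other single embryos left out instead, that adjusted p rose to as much as 0.144. ITGB1 had 45.0, 132 and 152 FPKM as lowest, median and highest value in male sham NT-BLs, against 46.0, 59.7 and 79.0 FPKM in male IVF-BLs; 4 of the male sham NT-BLs exceeded 100 FPKM and the difference was 0.72 (SE 0.29, limma adjusted p = 0.120).

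No integrin alpha subunit passed in any of the 6 comparisons. Between 13 and 15 were tested in each, where 0.321% to 13.5% of all rows passed, so the counts say little about these subunits. ITGA5 gave differences between -0.36 in male SCNT-BLs against male sham NT-BLs (SE 0.20, limma adjusted p = 0.306) and 0.40 in female SCNT-BLs against female IVF-BLs (SE 0.24, limma adjusted p = 0.552). ITGA3, ITGA6, ITGAV and ITGAL did not pass either, and neither did COL17A1, whose differences ran between -0.65 and 0.62. LAMC1 gave -0.61 in female sham NT-BLs against female IVF-BLs (SE 0.28, limma adjusted p = 0.174). The interactions of sex and origin called 0 of 49 members for SCNT-BLs against IVF-BLs, where 1.91% of all rows passed, and 4 members were higher and 3 lower at an unadjusted p under 0.05, which 15.2% of all rows reached. For sham NT-BLs against IVF-BLs limma called 0 of 52 members, where 1.22% of all rows passed, and 0 members were higher and 3 lower at an unadjusted p under 0.05, which 12.2% of all rows reached. In simulated data limma recovered 23% of changes of 1 on the log2 scale for male SCNT-BLs against male IVF-BLs (14705 rows) and 25% for the female comparison (15261 rows). The changed rows were drawn from those averaging over 1 FPKM in IVF-BLs, and both groups had the spread of IVF-BLs. These rates therefore do not describe members under 1 FPKM.

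**Figure D4:**
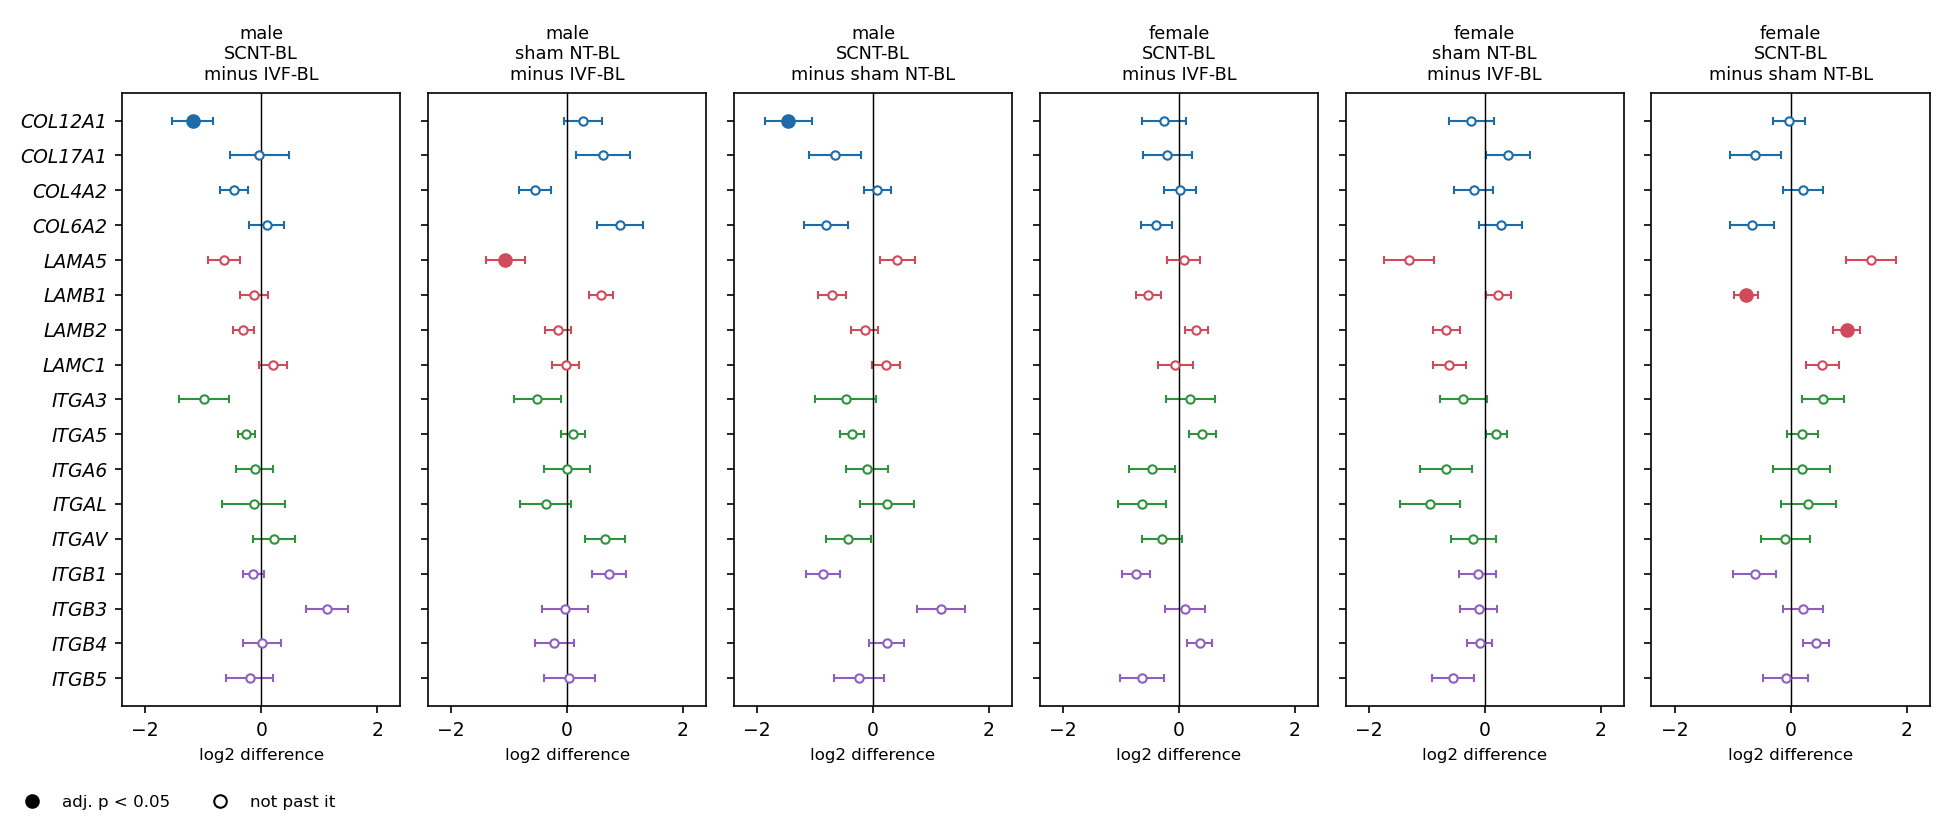
Difference in log2(FPKM + 1) between groups of blastocysts, with its SE, for 17 members in 3 male and 3 female comparisons, coloured by family (collagens blue, laminins red, integrin alpha green, integrin beta purple). Filled points passed limma's adjusted p of 0.05: COL12A1 in 2 male comparisons, LAMA5 in 1 male comparison, and LAMB2 and LAMB1 in female SCNT-BLs against female sham NT-BLs.

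Genes that process or bind the members were looked at by list. Of 25 rows for enzymes that hydroxylate, fold, cross-link or trim collagen, 18 were higher and 0 lower in both donor libraries, where 10.8% and 5.61% of all rows were. The lysyl oxidase LOX had 174 and 55.1 FPKM in male and female donor cells, against at most 1.27 FPKM in blastocysts. SERPINH1, the collagen chaperone, had 89.4 and 124 FPKM in male and female donor cells, against at most 26.4 FPKM in blastocysts. Of 19 rows for matrix metalloproteinases and their inhibitors 7 were higher and 1 lower. Among 15 rows for basement membrane partners and receptors 7 were higher and 1 lower. For 21 rows of adhesion proteins that work with integrins, 6 were higher and 2 lower. The shares of all rows given above apply to these lists too.

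Between embryos, limma called 2 collagen enzyme rows higher and 2 lower of 22 in male sham NT-BLs against male IVF-BLs, and 1 higher and 1 lower of 23 in females, where 12.1% and 13.5% of all rows passed in either direction. In SCNT-BLs against IVF-BLs limma called 0 of 21 in males and 0 of 24 in females, where 6.98% and 0.321% of all rows passed. PLOD3, a lysyl hydroxylase that also adds sugars to collagen, averaged 147 ± 46.9 FPKM in male sham NT-BLs and 47.0 ± 10.1 FPKM in male IVF-BLs (SD, n = 6 each), a difference of 1.60 (SE 0.22, limma adjusted p = 0.000253). In females it averaged 150 ± 27.3 FPKM in sham NT-BLs (SD, n = 5) and 37.2 ± 12.8 FPKM in IVF-BLs (SD, n = 6), a difference of 2.04 (SE 0.25, limma adjusted p = 0.000125). PPIB, a prolyl isomerase of the endoplasmic reticulum that aids collagen folding, was lower, with 58.2 ± 26.4 FPKM in male sham NT-BLs and 168 ± 46.9 FPKM in male IVF-BLs and a difference of -1.59 (SE 0.28, limma adjusted p = 0.00156). The female difference of PPIB was -2.30 (SE 0.36, limma adjusted p = 0.000656). Male and female SCNT-BLs averaged 50.6 and 61.4 FPKM of PLOD3 and 166 and 139 FPKM of PPIB, and both genes passed in SCNT-BLs against the same sham NT-BLs in both sexes. The calls of both genes held with any 1 embryo left out.

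Basement membrane partners and adhesion proteins gave calls too. Of 14 basement membrane rows, 1 was higher and 0 lower in female SCNT-BLs than in female sham NT-BLs, where 11.3% of all rows passed. In males this comparison gave 1 higher and 1 lower of 13, where 11.8% of all rows passed. These counts say little about the list as a whole. HSPG2, which encodes perlecan, a laminin-binding proteoglycan, was higher in female SCNT-BLs, at 9.37 ± 1.60 FPKM (SD, n = 6), than in female sham NT-BLs, at 3.14 ± 1.18 FPKM (SD, n = 5), by 1.36 (SE 0.31, limma adjusted p = 0.0110). DAG1, dystroglycan, a laminin receptor outside the integrin family, was lower in male SCNT-BLs, at 155 ± 95.7 FPKM, than in male sham NT-BLs, at 487 ± 260 FPKM (SD, n = 6 each), by -1.68 on the log2 scale (SE 0.43, limma adjusted p = 0.0167). In the same comparison SPARC, of the same list, was higher by 1.09 (SE 0.33, limma adjusted p = 0.0412). SPARC lost its call in 10 of 12 fits that each left out 1 embryo. PXN, paxillin, a scaffold on the integrin tail, was lower in male SCNT-BLs, at 5.74 ± 1.66 FPKM, than in male IVF-BLs, at 17.0 ± 5.61 FPKM (SD, n = 6 each), by -1.39 on the log2 scale (SE 0.27, limma adjusted p = 0.00677). PXN was also lower in male sham NT-BLs, at 6.19 ± 3.28 FPKM (SD, n = 6), than in male IVF-BLs, by -1.37 on the log2 scale (SE 0.33, limma adjusted p = 0.0113). Of 20 adhesion rows, 2 were higher and 3 lower in male sham NT-BLs than in male IVF-BLs, and 1 was higher and 4 lower in the female comparison, where 12.1% and 13.5% of all rows passed in either direction. In male SCNT-BLs against male IVF-BLs 0 of 19 adhesion rows were higher and 3 lower, where 6.98% of all rows passed. TIMP2, an inhibitor of metalloproteinases, was higher in female SCNT-BLs, at 13.3 ± 5.51 FPKM (SD, n = 6), than in female sham NT-BLs, at 3.31 ± 1.23 FPKM (SD, n = 5), by 1.70 (SE 0.35, limma adjusted p = 0.00608), and female IVF-BLs averaged 13.7 FPKM. It was 1 of 2 rows called higher, with 0 lower, among 13 metalloproteinase and inhibitor rows tested, where 11.3% of all rows passed.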

How the data were processed

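Poly-A RNA of 35 single blastocysts and 2 donor fibroblast samples was amplified and sequenced. Reads were aligned by the authors with TopHat2 to bovine build UMD 3.1, and Cufflinks gave FPKM. Trim Galore and Cuffdiff appear in the submitters' processing notes too, none with a version. The deposited file is 1 FPKM table of 22628 rows, used whole. FPKM hold no counts, so no counting errors or limits are given, and a value of 0 means listed at 0. The 76 members with a symbol in RefSeq (ARS-UCD2.0) were matched for names only.

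Groups and replicate numbers came from sample titles. Pairs of groups within a sex were compared with limma 3.58.1 (lmFit, eBayes with trend; R 4.3.3) on log2(FPKM + 1), over rows averaging over 0.1 FPKM, with Benjamini-Hochberg adjustment over all of them. Interactions used both sexes. Descriptions were computed with Python 3.11.15. The script was tested on simulated data: with 100 rows each changed by 2 and by 1 on the log2 scale, it recovered 72% and 23% for male SCNT-BLs against male IVF-BLs (12 false calls, 14705 rows) and 67% and 25% for females (6 false calls, 15261 rows). Changed rows were drawn from those averaging over 1 FPKM in IVF-BLs.

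Members, lists and the rule for naming genes were chosen with earlier results of these data known. Named were members past the threshold, the 4 with the highest blastocyst mean per family, and per family up to 4 higher and 2 lower in both donor libraries; other members were named as illustrations after their values were seen. Alternatives were a pseudocount of 0.1, a minimum mean of 1 FPKM or none, median centring, 1 fit over 3 groups, a replicate block, no trend, each embryo left out, and for donor cells a difference of at least 2 or only SCNT-BLs as reference. Most male sham NT libraries mapped a lower share of reads in the study's list. No p-value covers animals beyond these embryos, whose parents the labels do not give.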

Additional observations from a re-analysis of the deposited data

Results flagged for a closer look

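Single embryos that stood apart from their group were looked for in 112 pairs of a named gene and a group whose highest value was at least 1 FPKM; lower values were not looked at. In 11 pairs the highest embryo was separated from the rest by more than Dixon's limit (chance flags about 1 in 20 groups of unselected values; these pairs were selected by their highest value and the LAMA4 rows can share reads, so that rate does not hold here). LAMA5 was 9.18 FPKM in female sham NT-BL replicate 5, where the other 4 had 0.710 to 2.52 FPKM. LAMA4 was high in female sham NT-BL replicate 3, at 3.02 FPKM in row 2 and 4.75 FPKM in row 3, where the other 4 had at most 0.149 and 0.110 FPKM. LAMA4 row 1 stood apart in female sham NT-BL replicate 4, at 1.11 FPKM, and in female IVF-BL replicate 5, at 1.34 FPKM. COL6A1 was 4.09 FPKM in female SCNT-BL replicate 5, where the other 5 had at most 0.373 FPKM, and 3.26 FPKM in female IVF-BL replicate 6. COL6A2 was 1.75 FPKM in female SCNT-BL replicate 4. The remaining ones were male SCNT-BL replicate 5, with 1.22 FPKM of ITGA1 and 1.01 FPKM of LAMA3, and male sham NT-BL replicate 2, with 2.00 FPKM of ITGB4. The female donor library had 2896 FPKM of COL6A1 and 1608 FPKM of COL6A2.

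The LAMB2 difference between SCNT-BLs and sham NT-BLs was larger in females than in males by 1.11 on the log2 scale (limma interaction, adjusted p = 0.0493). Sex cannot be told apart from flow cell; a shift common to all libraries of a flow cell cancels in this term.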

How the results depend on the processing

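The counts of members called were small, and several changed with the processing. For male SCNT-BLs against male IVF-BLs the 1 call became 2 with a minimum mean of 1 FPKM and 0 without the filter, with median centring, in 1 fit over 3 groups and without the trend. For male sham NT-BLs against male IVF-BLs the 1 call became 2 with median centring, in 1 fit over 3 groups and without the trend. For male SCNT-BLs against male sham NT-BLs it became 0 without the filter and 5 in 1 fit over 3 groups. For female sham NT-BLs against female IVF-BLs 0 calls became 2 with a pseudocount of 0.1, in 1 fit over 3 groups and without the trend, and 1 with a minimum of 1 FPKM and without the filter. The interaction of SCNT-BLs against sham NT-BLs lost its 1 call with a pseudocount of 0.1 and with median centring, giving 0. Of the 36 members higher in male donor cells 23 differed by at least 2. The cause of these changes was not tested. Leaving out 1 embryo at a time gave 0 to 1 call for male SCNT-BLs against male IVF-BLs, 0 to 3 for male sham NT-BLs against male IVF-BLs, 0 to 3 for male SCNT-BLs against male sham NT-BLs, 0 to 0 and 0 to 1 for female SCNT-BLs and female sham NT-BLs against female IVF-BLs, and 1 to 3 for female SCNT-BLs against female sham NT-BLs. No direction of a call was reversed in any setting.

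Replicate numbers did not pair the embryos: deviations of same-numbered embryos from their group means correlated between -0.239 and 0.077. With the replicate block, 0 members were called in male sham NT-BLs against male IVF-BLs and 0 in female SCNT-BLs against female sham NT-BLs, where LAMB2 had an adjusted p of 0.0548. Of the partner genes described, HSPG2 lost its call in female SCNT-BLs against female sham NT-BLs with the block, at an adjusted p of 0.0541. Depth in reads is unknown, which limits what can be said of members under 1 FPKM.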
